A study of Mus musculus with 6 samples.

Results

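Transcript levels of 10 glycolytic enzyme genes were examined in the mouse testis cell line TM4: the hexokinases Hk1 and Hk2, glucose-6-phosphate isomerase (Gpi1), the aldolases Aldoa and Aldoc, triosephosphate isomerase (Tpi1), glyceraldehyde-3-phosphate dehydrogenase (Gapdh), phosphoglycerate kinase (Pgk1), phosphoglycerate mutase (Pgam1) and enolase (Eno1). They were found by matching gene symbols to the Ensembl identifiers of the deposited table, and they were 10 of its 55414 genes. RNA sequencing libraries were made from TM4 cells labelled VC (n = 3) and from TM4 cells labelled control (n = 3). The sample titles and the series title point to vitamin C as the agent of the VC group, whereas an agent field and the design text name valine, and no dose or exposure time was given. TM4 is used as a model of the Sertoli cell, the somatic cell of the seminiferous tubule, and whether the replicates are separate cultures was not stated. The p-values therefore cover the variation among these libraries, which may be technical only. All values are on a transcripts-per-million (TPM) scale with 1 scaling factor per library. The gene length behind each value is the total of all annotated exons, 5379 bases for Eno1 and 1739 for Eno3. Levels, ranks and shares of different genes therefore depend on the annotation and compare only roughly.

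Glycolysis converts glucose to pyruvate in the cytosol. Hexokinase traps glucose as glucose 6-phosphate, isomerase and aldolase turn the hexose into triose phosphates, and the enzymes from Gapdh to Eno1 carry the triose phosphates toward pyruvate while conserving energy as NADH and ATP. Sertoli cells are known for a high glycolytic flux: they export lactate, which germ cells use as fuel. Many of these genes are known targets of the hypoxia-inducible factor HIF-1, and several, Gapdh above all, have left many processed pseudogenes in the mouse genome, reverse-transcribed copies without introns whose sequence can match the parent mRNA almost base for base.

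The libraries held 20408427 to 22316855 reads, recovered from the values as described under the processing. Sertoli markers were only partly present: of 15, 6 were listed at 0 in every library (Wt1, Gata1, Fshr, Dmrt1, Shbg and Nr0b1). The summed level of the 15 was 231 to 238.5 in VC and 205.5 to 213 in control. Most of this sum was Inhbb, at a mean of 176.7 in VC and 155.8 in control. The summed level of 6 myoid and smooth muscle markers was 472.8 to 493.5 in VC and 725.8 to 802.9 in control. Most of this sum was Acta2, at a mean of 381.7 in VC and 612.9 in control, while Myh11 and Des were too low to be tested. Of the 4 tested markers 2 were called lower, Acta2 and Actg2. The part of the myoid markers in the results below was not tested. Macrophage markers summed to 60.51 to 70.58 in VC and 55.45 to 65.33 in control. Nearly all of this sum was Cd14, at a mean of 60.18 in VC and 54.24 in control, while Adgre1 was listed at 0 in every library. Endothelial markers summed to 3.388 to 4.085 in VC and 2.935 to 3.495 in control, and Leydig cell markers to 2.735 to 3.527 in VC and 2.339 to 3.312 in control. Germ cell markers summed to at most 2.6, and the germ cell isozyme Pgk2 was listed at 0 in every library. Control replicate 3 stood apart: its reads gave a chi-square per degree of freedom of 9.57 to 17.2 in pairs with the other libraries, where all remaining pairs gave 2.78 to 7.28. In bulk RNA, fewer cells of a type and less RNA per cell cannot be told apart.

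Because processed copies bear on how far each value belongs to its gene, the sequences are shown first. A set of 169 annotated pseudogenes and retrogenes matched 7 of the 10 genes over at least 300 bases at 90% identity or more, 151 of them to Gapdh. Below is a stretch of 60 coding bases of Gapdh (positions 394 to 453 of its 1080-base coding sequence, chromosome 6) with the same stretch of its 2 copies of highest level, Gm13394 (chr2:28934235-28934294, minus strand) and Gm5559 (chr5:95862029-95862088, plus strand). The capital marks the only position in this window at which the 3 differ.
Gapdh: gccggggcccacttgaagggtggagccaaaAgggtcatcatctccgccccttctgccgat
Gm13394: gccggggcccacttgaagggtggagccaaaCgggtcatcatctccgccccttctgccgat
Gm5559: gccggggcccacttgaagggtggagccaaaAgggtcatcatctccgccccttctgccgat
Gm13394 had 1 mismatch to Gapdh over 1000 aligned coding bases, and Gm5559 had 1 over 1002. A stretch of exon 8 of Eno1 (chr4:150246598-150246657, plus strand, coding positions 696 to 755) is set beside the copies Gm4735 (chr2:80837836-80837895, plus strand) and Gm5855 (chr3:130929916-130929975, minus strand). Capitals mark the 2 positions at which any of the 3 differ.
Eno1: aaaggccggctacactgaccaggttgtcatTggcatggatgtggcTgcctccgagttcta
Gm4735: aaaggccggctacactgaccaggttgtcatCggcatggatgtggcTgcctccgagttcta
Gm5855: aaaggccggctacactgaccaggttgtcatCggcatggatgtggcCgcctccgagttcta
Over the aligned coding sequence Gm4735 had 5 mismatches in 1302 bases and Gm5855 had 47 in 1304. Gm5855 was a minor copy, at a mean of 27.0 in VC and 31.2 in control. The retrogene Eno1b, whose sequence is not shown, was far higher, at 671 in VC and 778.3 in control. It matched Eno1 at 99.5% identity over 1736 aligned bases. For Pgk1 and Pgam1 the copies with the highest levels were identical to the gene over the whole alignment: Pgk1-rs7 (chromosome 12) over 1253 of 1254 coding bases, Gm5537 (chromosome 3) over 1252, and Pgam1-ps2 (chromosome 7) over all 765. The stretch below, coding positions 271 to 330 of Pgk1, is the same in Pgk1-rs7 and Gm5537, and no base is in capitals because none differs.
Pgk1: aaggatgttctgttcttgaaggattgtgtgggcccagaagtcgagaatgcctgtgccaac
Coordinates and sequences, here and below except for promoters, are those of GENCODE M21 on GRCm38, an earlier build than the GRCm39 named for the alignment. Reads that lie within identical stretches cannot be assigned to the gene or to its copy by sequence, whereas reads over a differing base can.

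VC was compared with control to ask which enzyme genes differed with the agent. Pgk1 and Eno1, which act in the ATP-generating part of the pathway, fell in VC, and no enzyme gene was called higher. From Gpi1 to Eno1, 7 genes had all 3 VC values below all 3 control values, whereas Hk1 was at slightly higher values in VC and Hk2 overlapped. Calls were made with limma on log2(value + 1), with Benjamini-Hochberg adjustment over the 13972 genes that reached a value of 1 in at least 3 libraries and a threshold of 0.05. Of the 10 genes 9 passed that filter, 2 were called lower and 0 higher by limma, and 8 had an unadjusted p under 0.05, 7 of them lower and 1 higher. Among all tested genes 0.687% were called, 0.258% lower and 0.429% higher, 8.2% were lower and 9.05% higher at an unadjusted p under 0.05, and 11.6% had all VC values below all control values. The median log2 fold change of the 9 genes was -0.234, against 0.012 for all tested genes. Abundant genes as a class leaned the same way: of the 265 tested genes with a mean of 500 or more, 59.2% had all VC values below all control values, 38.9% were lower at an unadjusted p under 0.05, and the median log2 fold change was -0.111. Of these 265 genes 6 were called lower by limma. Aldoa, Tpi1, Pgk1, Pgam1 and Eno1 were at that level, and their counts are to be read against these shares. The 265 genes, and the 1517 below, include these 5 and several annotated copies such as Gm13394 and Gm4735. Such copies may share reads with their gene. Gpi1 and Gapdh were lower, with means of 100 or more. Of the 1517 tested genes with such means, 38.6% had all VC values below all control values and 28.4% were lower at a limma unadjusted p under 0.05.

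**Figure D1:**
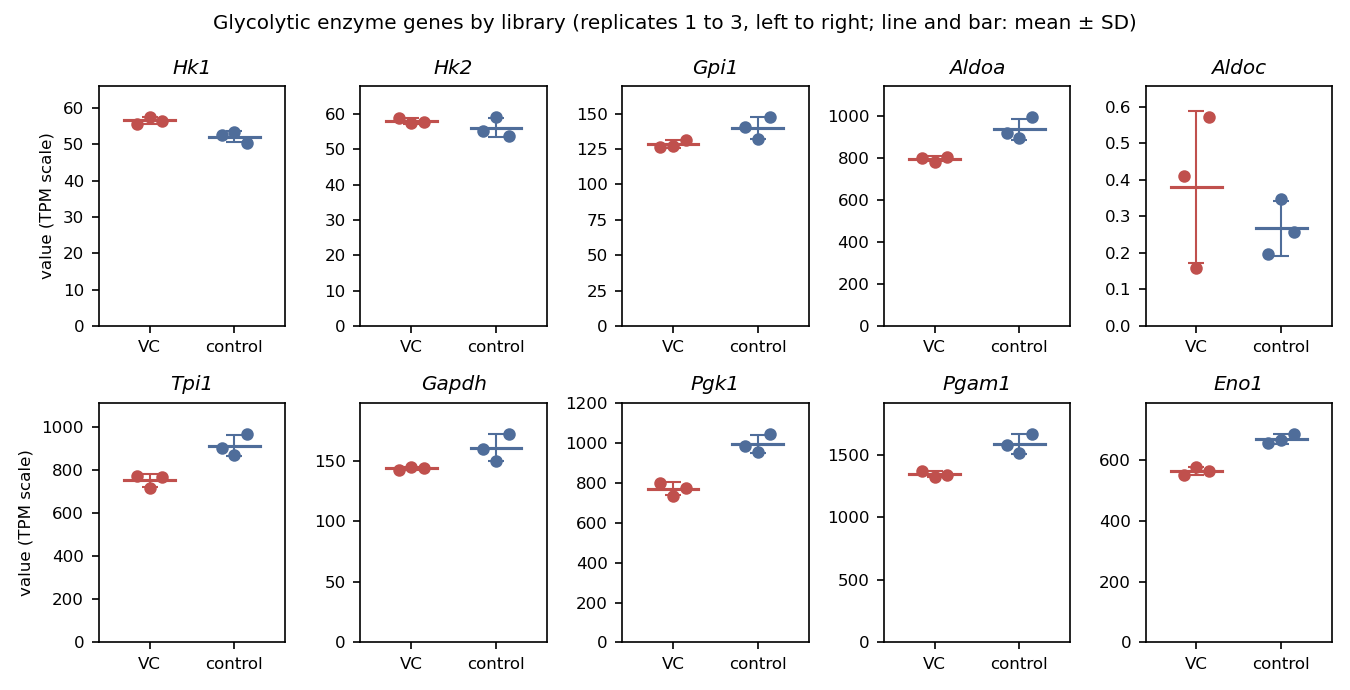
Deposited values (TPM scale, axis from 0) of the 10 enzyme genes in the 3 VC and 3 control libraries; points are libraries, lines are means and bars are SD. The VC points lie below all control points for Gpi1, Aldoa, Tpi1, Gapdh, Pgk1, Pgam1 and Eno1, above them for Hk1, and overlap them for Hk2 and Aldoc.

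The hexokinases, which commit glucose to the cell, were expressed at like levels. Hk1 had 55.7, 57.4 and 56.5 in VC, against 52.5, 53.5 and 50.3 in control. All VC values lay above all control values. The log2 fold change, 0.12 with an SE of 0.038, did not pass the threshold (limma adjusted p = 0.201). For comparison, 13.9% of tested genes had all VC values above all control values. Hk2, the isozyme that is inducible in many tissues, had 59.0, 57.3 and 57.7 in VC, against 55.3, 59.0 and 53.8 in control, and the groups overlapped. Its log2 fold change was 0.05, with a 95% interval of -0.05 to 0.15 (limma adjusted p = 0.598). Hk1 gave 49.35% ± 0.735 of the summed Hk1 and Hk2 values in VC and 48.19% ± 0.617 in control (SD, n = 3 each; exact permutation p = 0.2, two-sided, where 0.1 is the smallest p that 3 against 3 allows). Hk3 and Hkdc1, of the same family, had at most 4 reads in any library. Adpgk, which phosphorylates glucose with ADP, was at 16.2 ± 0.565 in VC and 17.4 ± 0.576 in control (log2 fold change -0.10, limma adjusted p = 0.377).

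Gpi1 (chr7:34201330-34230336, minus strand), which interconverts glucose 6-phosphate and fructose 6-phosphate, had 126.8, 127.4 and 131.6 in VC, against 140.5, 131.8 and 147.4 in control. The highest VC value lay just under the lowest control value. The log2 fold change was -0.12 (SE 0.047, limma adjusted p = 0.262), with a 95% interval of -0.23 to -0.01.

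Aldolase splits fructose 1,6-bisphosphate into the triose phosphates. Aldoa (chr7:126795234-126800751, minus strand), the muscle-type isozyme that most cells use, had 801, 785 and 807 in VC, against 923, 899 and 996 in control. The groups were apart, and the log2 fold change, -0.23 with an SE of 0.045, missed the threshold at a limma adjusted p of 0.0757. Aldoc, the brain-type isozyme, was below the filter and not tested: it had 0.411, 0.159 and 0.571 in VC and 0.198, 0.347 and 0.258 in control, on 4 to 15 reads per library, and the groups overlapped. Aldoa therefore made up 99.95% of the summed aldolase A and C values in VC and 99.97% in control (exact permutation p = 0.4, two-sided). The symbol Aldoa was also carried by a second identifier (ENSMUSG00000114515), whose annotated exons lie upstream of the RefSeq-matched gene (ENSMUSG00000030695) on the same strand of chromosome 7. That entry had 2.90, 6.82 and 5.29 in VC and 2.91, 4.09 and 4.22 in control, which overlapped, and it is not counted among the 10 genes.

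Tpi1 (chr6:124810586-124814296, minus strand), which interconverts the triose phosphates, had 772, 716 and 766 in VC, against 900.4, 870.3 and 967 in control. The highest VC value was below the lowest control value by more than the SD of either group, 30.7 in VC and 49.6 in control. The log2 fold change was -0.28 (SE 0.052), and the limma adjusted p was 0.0723. Its 2 annotated copies held 0.324% to 0.549% of the reads of gene and copies together, so its value was almost free of them.

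Gapdh (chr6:125161715-125166467, minus strand), which oxidizes glyceraldehyde 3-phosphate and yields NADH, had 143, 145 and 144 in VC, against 160.2, 150.4 and 172.5 in control. The groups were apart. The log2 fold change was -0.16, with an SE of 0.052 and a limma adjusted p of 0.198. This value was only a small part of the Gapdh-like signal. The 151 annotated copies summed to 41624, 41396 and 41546 in VC and to 45442, 44593 and 49447 in control, and they held 98.6% to 98.7% of the reads recovered on gene and copies. Gm13394 alone was at 8093 ± 109 in VC and 9003 ± 452 in control (SD, n = 3 each). Gapdh stood at rank 952 of the tested genes on its own row; with the reads of the copies added it came to 10440, 10380 and 10420 in VC and to 11400, 11180 and 12400 in control. The log2 fold change was then -0.16 as well (SE 0.0568, limma adjusted p = 0.228). Of the 51 copies that passed the filter, 0 were called by limma and 29 were lower at an unadjusted p under 0.05. The copies are nearly identical and may share reads, so they are not separate measurements, and from which of these loci the reads came was not tested. Gapdhs, the sperm isozyme, was at 1.633 ± 0.261 in VC and 1.299 ± 0.205 in control, on 15 to 25 reads per library.

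Pgk1 (chrX:106187100-106203699, plus strand, ENSMUSG00000062070) makes ATP from bisphosphoglycerate in the first ATP-yielding step. It had 798, 734 and 776 in VC, against 983, 956 and 1046 in control, or 769 ± 32.3 in VC and 995 ± 46.3 in control (SD, n = 3 each). The highest VC value was far under the lowest control value. Pgk1 fell by 0.37 on the log2 scale (SE 0.049, limma adjusted p = 0.0348), and ranked 56th by p among all tested genes. Its 4 annotated copies held 7.37% to 8.49% of the combined reads. With these reads added, Pgk1 was at 835 ± 34.6 in VC and 1079 ± 45.7 in control; the log2 fold change was -0.37 and the limma adjusted p 0.0343. The identical copies Pgk1-rs7 and Gm5537 also had all VC values below all control values. They may share reads with Pgk1, so they are not separate measurements.

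Pgam1 (chr19:41911923-41918660, plus strand) moves the phosphate group of phosphoglycerate and had the highest value of the 10 genes on the gene rows, at rank 84 of the tested genes; with copies added, Gapdh was higher. It had 1371, 1324 and 1342 in VC, against 1578, 1513 and 1669 in control. The groups were apart, and the log2 fold change of -0.24 (SE 0.045) missed the threshold at a limma adjusted p of 0.0756. The identical copy Pgam1-ps2, which may share reads with Pgam1, was at 490.3 ± 17.1 in VC and 565.8 ± 44.7 in control. The copies held 11.6% to 12.5% of the combined reads. Pgam2, the muscle isozyme of the same step, lay on the other side: it had 8.56, 8.03 and 7.39 in VC, against 5.23, 5.69 and 5.45 in control. All its VC values lay above its control values on 34 to 59 reads per library. Its log2 fold change was 0.48, with an SE of 0.078 and a limma adjusted p of 0.0538; the adjusted p was 0.0324 with equal library totals and 0.164 with limma-voom. Its share of the summed Pgam1 and Pgam2 values was 0.5904% ± 0.038 in VC and 0.3435% ± 0.0272 in control. The share had no overlap (exact permutation p = 0.1, the smallest this design allows). Because Pgam1 lay below control and Pgam2 above, this share could not overlap and is no separate support. Bpgm, which makes and removes 2,3-bisphosphoglycerate, was at 14.5 ± 0.395 in VC and 14.2 ± 0.384 in control, and the groups overlapped.

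Eno1 (chr4:150236721-150248879, plus strand, ENSMUSG00000063524), the ubiquitous enolase, forms phosphoenolpyruvate. It had 549, 575 and 564 in VC, against 655, 663 and 685 in control. The groups were separated by several times the SD, 13.2 in VC and 15.7 in control. Eno1 fell by 0.25 on the log2 scale (SE 0.035, limma adjusted p = 0.0402). Its 6 annotated copies held 43.9% to 46.7% of the combined reads, mostly on Gm4735, at 966 ± 9.88 in VC and 1105 ± 84.4 in control, and on the retrogene Eno1b, at 671 ± 4.44 in VC and 778.3 ± 68.5 in control. With the copies' reads added, the value was 1039 ± 11.9 in VC and 1216 ± 59.7 in control, the log2 fold change was -0.23 (SE 0.0435), and the call was lost at a limma adjusted p of 0.0759. Eno2, the neuron-type enolase, had 28.1, 22.9 and 26.7 in VC, against 19.6, 18.6 and 21.8 in control. All its VC values lay above its control values. Its log2 fold change was 0.36, with an SE of 0.09 and a limma adjusted p of 0.126. Eno3, the muscle-type enolase, was at 321.9 ± 4.49 in VC and 337.5 ± 12.1 in control (log2 fold change -0.07, limma adjusted p = 0.39). Eno1 gave 61.8% ± 0.419 of the summed enolase values in VC and 65.13% ± 0.324 in control, and Eno2 gave 2.847% ± 0.337 in VC and 1.948% ± 0.116 in control. Neither share overlapped between groups (exact permutation p = 0.1 for each, two-sided, the smallest this design allows). Because Eno2 lay above control and Eno1 and Eno3 below, the Eno2 share could not overlap and is no separate support. These shares rest on the gene rows without the copies and on the annotated exon lengths. In reads, Eno1 had 23833 to 30591 per library and Eno3 had 4374 to 5068.

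**Figure D2:**
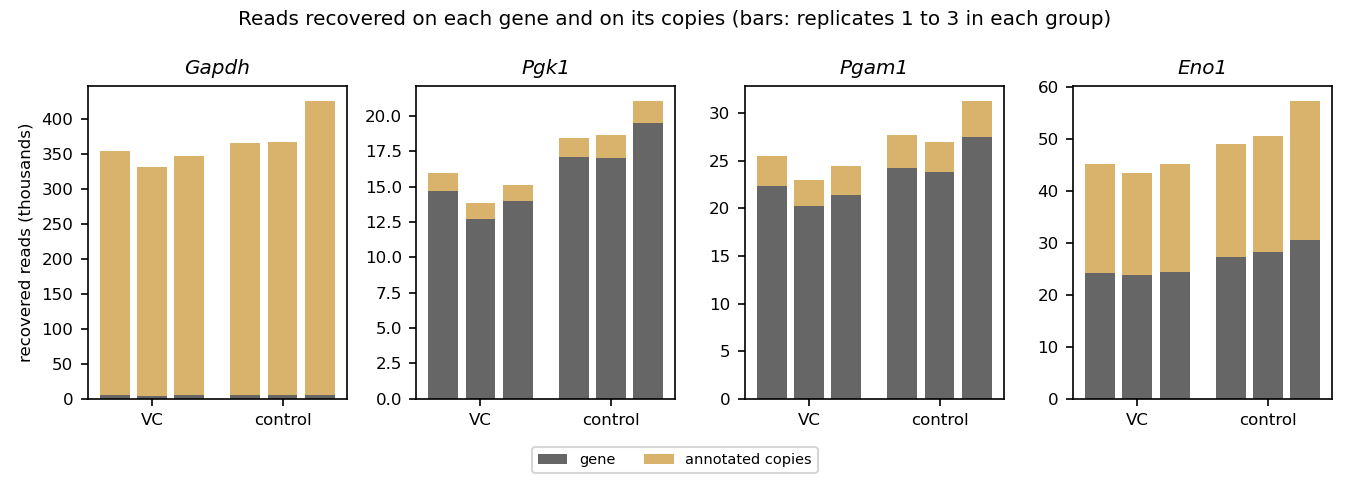
Reads recovered on Gapdh, Pgk1, Pgam1 and Eno1 (grey) and on their annotated pseudogene or retrogene copies (tan), with 1 bar per library. Copies hold 98.6% to 98.7% of the reads for Gapdh, 43.9% to 46.7% for Eno1, 11.6% to 12.5% for Pgam1 and 7.37% to 8.49% for Pgk1.

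**Figure D3:**
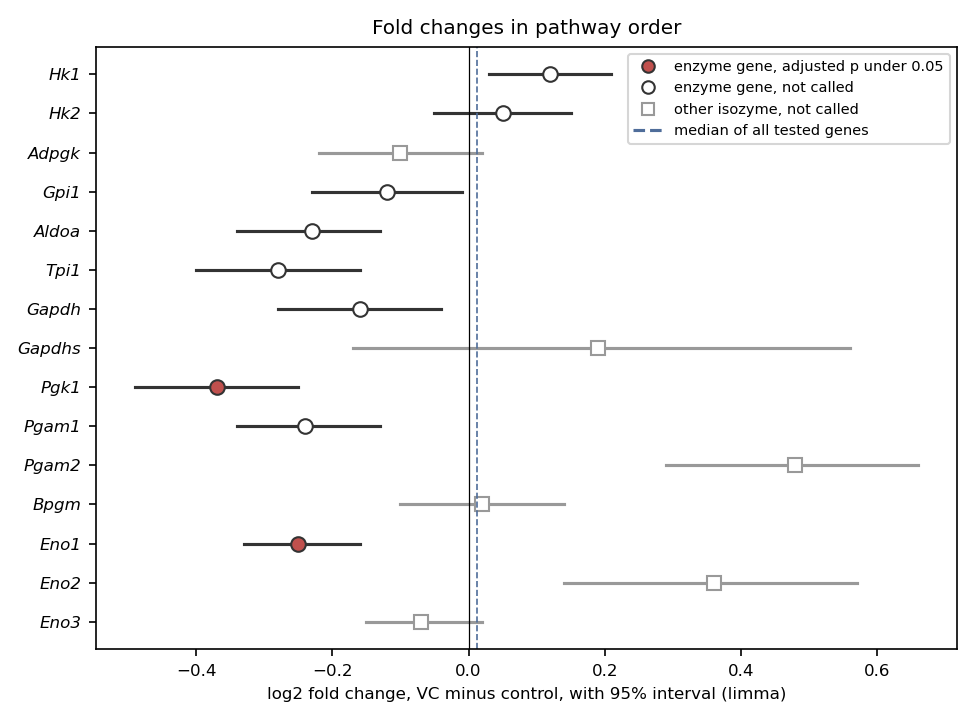
Log2 fold change of VC minus control with its 95% interval (limma) for the tested enzyme genes (circles) and other isozymes of the same steps (squares), in pathway order. Filled circles mark Pgk1 and Eno1, which fell; Pgam2 and Eno2 lie to the right of 0 while Pgam1 and Eno1 lie to the left.

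The control libraries kept 1 order for most of the genes, and the VC libraries did not. Control replicate 3 held the highest control value for 7 of the 9 tested genes, from Gpi1 to Eno1, and the lowest for Hk1 and Hk2. Control replicate 2 was the lowest control for 6 of them (Gpi1, Aldoa, Tpi1, Gapdh, Pgk1 and Pgam1). Among the VC libraries, replicate 2 was lowest for Hk2, Aldoa, Tpi1, Pgk1 and Pgam1, and replicate 1 for Hk1, Gpi1, Gapdh and Eno1. Replicate 1 was also the highest VC library for 4 genes, Hk2, Tpi1, Pgk1 and Pgam1. That 7 genes had all VC values below all control values cannot change when a library is left out. Without control replicate 3 the log2 fold changes were -0.333 for Pgk1 and -0.227 for Eno1, each at a limma adjusted p of 0.0476. In the same fit they were -0.108 for Gapdh and -0.081 for Gpi1. The calls of Pgk1 and Eno1 were lost when any of the other 5 libraries was left out: without control replicates 1 or 2 or any VC replicate, 0 of the 10 genes were called. The log2 fold changes in those fits were -0.398 to -0.337 for Pgk1 and -0.262 to -0.228 for Eno1, close to the values with all libraries, and 0 or 1 of all tested genes were called.

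The libraries also differed in the total of their values, 966031 to 983802 in VC and 1007535 to 1058206 in control. With each library scaled to an equal total, the median over the tested genes was a log2 fold change of 0.078 instead of 0.012, and Pgk1 (-0.30) and Eno1 (-0.17) were still called lower. Hk2 then lay above control in every VC library, while Gpi1 and Gapdh overlapped between groups, which left 5 genes with all VC values below all control values, where 4.6% of tested genes did so and 25.7% of those with a mean of 500 or more.

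The rest of the pathway gave the setting for these genes. Of 14 tested genes for glucose uptake, phosphofructokinase, pyruvate kinase and lactate, 2 fell and 0 rose by limma, with 3 lower and 1 higher at an unadjusted p under 0.05. Among all tested genes 0.258% were called lower and 0.429% higher by limma. At a limma unadjusted p under 0.05, 8.2% were lower and 9.05% higher. The median log2 fold change of the 14 genes was -0.002. Pfkl, the liver-type phosphofructokinase, was at 55.3 ± 1.41 in VC and 79.1 ± 3.6 in control (limma adjusted p = 0.0167), and Ldha, the lactate dehydrogenase subunit that favours lactate, was at 974 ± 30.4 in VC and 1247 ± 75.7 in control (limma adjusted p = 0.0438). Both lost the call when any library other than control replicate 3 was left out, at log2 fold changes of -0.54 to -0.49 for Pfkl and -0.39 to -0.33 for Ldha, against -0.51 and -0.36 with all libraries. Pkm, pyruvate kinase, was at 1336 ± 40.6 in VC and 1491 ± 55.1 in control and did not pass (limma adjusted p = 0.146). Ldha and Pkm had means of 500 or more. Of tested genes at that level, 38.9% were lower at a limma unadjusted p under 0.05. With limma-voom on recovered reads, 3 genes of this list were called lower, Pfkl, Ldha and Pkm (adjusted p = 0.0315 for Pkm). The same fit called 1 higher, Pfkfb3, an enzyme that makes an activator of phosphofructokinase. Among all 13772 genes in that fit, 207 were called lower and 341 higher. Pfkfb3 was at 19.6 ± 1.01 in VC and 15.8 ± 1.28 in control (limma adjusted p = 0.119). The glucose transporter Slc2a1 was at 102 ± 5.92 in VC and 102.7 ± 4.57 in control, with a 95% interval of its log2 fold change from -0.14 to 0.12. Among 6 tested other isozymes of the enzymes' own steps, 0 were called by limma in either direction, 2 were higher at an unadjusted p under 0.05 (Pgam2 and Eno2), and limma-voom on recovered reads called 1 of them, Eno2, higher (adjusted p = 0.0264).

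For the promoters, the 250 bases before each RefSeq start were searched on both strands for ACGTG and GCGTG, the core letters of the site that HIF-1 is known to bind. Promoters are shown for Pgk1 and Eno1, which fell, and for Hk2, which is also a known HIF-1 target and overlapped between groups; capitals mark matches. The windows, from RefSeq on GRCm38.p6, are chrX:106186850-106187099 (plus strand) for Pgk1, chr4:150236458-150236707 (plus strand) for Eno1 and chr6:82774455-82774704 (minus strand) for Hk2.
Pgk1: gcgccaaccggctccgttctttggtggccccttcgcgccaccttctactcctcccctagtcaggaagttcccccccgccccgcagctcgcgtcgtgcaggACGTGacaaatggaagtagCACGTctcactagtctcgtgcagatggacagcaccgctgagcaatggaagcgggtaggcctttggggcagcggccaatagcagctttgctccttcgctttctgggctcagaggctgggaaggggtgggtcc
Eno1: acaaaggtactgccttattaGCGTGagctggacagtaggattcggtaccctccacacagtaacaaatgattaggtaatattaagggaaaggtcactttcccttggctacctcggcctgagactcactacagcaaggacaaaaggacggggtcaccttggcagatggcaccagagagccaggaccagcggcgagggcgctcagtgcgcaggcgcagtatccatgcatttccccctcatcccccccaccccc
Hk2: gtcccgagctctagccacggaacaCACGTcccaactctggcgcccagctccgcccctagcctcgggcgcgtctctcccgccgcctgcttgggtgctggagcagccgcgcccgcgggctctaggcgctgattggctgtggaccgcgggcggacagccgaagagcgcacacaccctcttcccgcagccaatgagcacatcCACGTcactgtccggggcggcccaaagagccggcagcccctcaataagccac
Pgk1 and Hk2 had 2 ACGTG matches each, and Eno1 had 1 GCGTG match in this window. All 10 genes had a promoter entry, with 16 windows in all, and 12 of these windows, from 8 genes, held a match; Gpi1 and Tpi1 had none. Over all 32851 windows of the same length, 16.6% held ACGTG, 28.2% held GCGTG and 38.6% held either. Genes with a match were found both among those that fell and among those that did not, and a match is a description of the letters only.

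**Figure D4:**
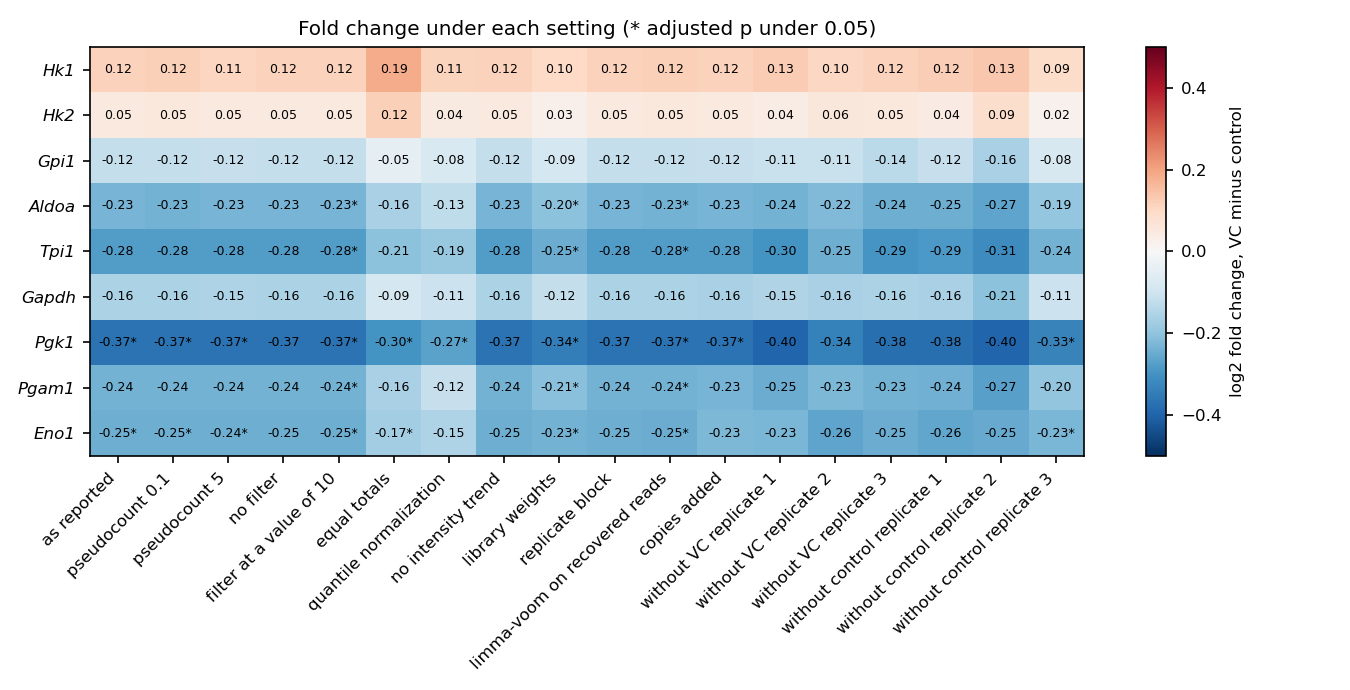
Log2 fold change (VC minus control) of the 9 tested enzyme genes under each processing setting, with an asterisk where the limma adjusted p is under 0.05. Signs are the same in every column for every gene. They could not differ with no filter, a filter at 10, no intensity trend or a replicate block, which leave the fold change unaltered. The asterisks of Pgk1 and Eno1 come and go, and Aldoa, Tpi1 and Pgam1 gain one with a filter at a value of 10, library weights or limma-voom.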

How the data were processed

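RNA was extracted with Trizol and sequenced from TruSeq libraries, per the labels' protocols; strandedness is not stated. Alignment used HISAT2 and GRCm39, per the submitters' processing notes; neither a counting tool nor an annotation is named there. The authors deposited a signal per gene on a TPM scale, multiplied by 1 factor per library (TMM, going by the table's name). Columns were matched to samples by group letter and number. The gene list, context lists, rule for named genes and tests were chosen with earlier results of these data known. All 10 genes and their isozymes are named, except some isozymes that are not reported here; other pathway genes are named where called, or else up to 4 with the smallest adjusted p. Pkm, Pfkfb3, Slc2a1, the gluconeogenesis genes and copies beyond each gene's most abundant one were added after their values were seen. The share tests of Pgam2, Eno1 and Eno2 were also unplanned.

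Symbols matched 52081 of 55414 identifiers. The limma 3.58.1 (R 4.3.3) fit took log2(value + 1) of genes at 1 or more in at least 3 of 6 libraries, with an intensity trend, two-sided. Fold changes on this scale understate the change of low genes. Value times exon length (GENCODE M21), divided by the worth of 1 read in that library, came out as a whole number of reads, to within 0.1 read, for 98.74% to 98.89% of the low values examined. These reads served for depth, limma-voom and copies. Copies were found with blastn 2.17.0 (at least 90% identity, 300 aligned bases and 50% of the copy, annotated as pseudogene or retrogene). How the authors counted reads that match several genes is unknown, so a read may be counted on several copies. The fit was tested on simulated data with the same spread for all genes, no outlying library and no shared reads. That test does not cover these traits of the real libraries. Figures used matplotlib 3.10.9 and tests scipy 1.17.1.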

Additional observations from a re-analysis of the deposited data

How the results depend on the processing

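All 9 tested genes kept their sign under each of the 17 alternatives. With no filter, a filter at 10, no intensity trend or a replicate block the fold change is unaltered, so its sign could not move. When no library was left out, Pgk1 ranged from -0.37 to -0.269 and Eno1 from -0.247 to -0.154. When 1 was left out, they ranged from -0.398 to -0.333 and from -0.262 to -0.227. Members called lower, 2 as reported, numbered 0 with no filter, 5 with a filter at a value of 10, 1 after quantile normalization, 0 without an intensity trend, 5 with library weights, 5 with limma-voom on recovered reads, 1 with copies added, and 0 to 2 with 1 library left out. Other glycolytic genes called lower, also 2, numbered 1 with no filter, 1 after quantile normalization, 0 without an intensity trend, 3 with limma-voom, and 0 to 2 with 1 library left out. Of all genes, 96 were called as reported (62.5% of them higher), 30 with no filter, 234 with a filter at 10, 217 with equal totals (83.9% higher), 6 without an intensity trend, 254 with library weights, 548 with limma-voom, and 0 to 83 with 1 library left out. The cause of these moves was not tested. With the replicate number as a block, 0 genes in all, 0 of the 10 genes and 0 other glycolytic genes were called. Deviations of same-numbered libraries correlated at -0.019, -0.011 and 0.005 across genes. These correlations gave no sign of pairing over all genes, but they cannot exclude it for single genes. With the block the SE of Pgk1 was 0.0454 instead of 0.0492, and that of Eno1 was 0.0398 instead of 0.0351. The share differences of Hk1 and Aldoa kept their sign with 1 library left out. Depth limited Aldoc, Gapdhs and Pgam2, at under 60 reads per library.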

Other observations

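Of 18 genes of the pentose phosphate pathway, serine synthesis, glycerol phosphate, hexosamine and gluconeogenesis routes, which branch from glycolysis, 13 were tested. In limma 0 passed in either direction, where 0.687% of all tested genes did, so this count is near that share. At a limma unadjusted p under 0.05, 2 were lower and 0 higher, against 8.2% and 9.05% of all tested genes. Limma-voom on recovered reads called 1, Pgp, lower, and 548 of 13772 genes in all. Pgp, a phosphatase that clears phosphoglycolate and side products of glycolysis, had 74.8, 65.7 and 54.6 in VC, against 85.5, 78.6 and 94.8 in control, with no overlap (log2 fold change -0.41, SE 0.119, limma adjusted p = 0.16). Psat1, an enzyme of serine synthesis from 3-phosphoglycerate, was at 428 ± 4 in VC and 454.9 ± 6.07 in control (log2 fold change -0.09, limma adjusted p = 0.213). Gfpt1, of the hexosamine route, was at 58.7 ± 0.732 in VC and 55.5 ± 2.75 in control (log2 fold change 0.08, limma adjusted p = 0.402). All its VC values lay above its control values. G6pdx, the entry enzyme of the pentose phosphate pathway, was at 133 ± 4.75 in VC and 126.2 ± 5.07 in control and overlapped between groups. Fbp1, Fbp2, Pck1 and G6pc, genes of gluconeogenesis, were listed at 0 in all 6 libraries. Pck2 and G6pc3 of the same list were expressed and overlapped between groups. Pck2 was at 16.95 in VC and 16.46 in control, and G6pc3 at 27.47 in VC and 28.55 in control.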
